A study of Homo sapiens with 6 samples.

Results

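The clustered protocadherins were examined by whole-genome bisulfite sequencing in H9, a long-established line of human embryonic stem cells. Members were the protein-coding genes on chromosome 5 of GRCh37 (GENCODE annotation) whose symbols begin with PCDHA, PCDHB or PCDHG, which gave 53 of the 20090 protein-coding genes of chromosomes 1 to 22 and X. They comprised 15 alpha genes (PCDHA1 to PCDHA13, PCDHAC1 and PCDHAC2), 16 beta genes and 22 gamma genes (12 PCDHGA, 7 PCDHGB, PCDHGC3, PCDHGC4 and PCDHGC5). All lie on the plus strand, in the order alpha, beta, gamma. The alpha cluster occupies chr5:140165725-140391932, the beta cluster chr5:140430959-140628933 and the gamma cluster chr5:140710081-140892542, together 727 kb.

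The study compared 3 libraries of conventional H9 cells with 3 libraries of reset H9 cells. Conventional cells grew in medium with 20% KSR (a serum replacement) and 10 ng/ml bFGF. Reset cells were transfected with NANOG and KLF2, which were induced with doxycycline, and after the doxycycline was withdrawn they were kept in t2iL+Gö, which holds LIF, 1 μM CHIR99021 (a GSK3 inhibitor), 1 μM PD0325901 (a MEK inhibitor) and 5 μM Gö6983 (a protein kinase C inhibitor). Both kinds of cell grew on mouse embryonic fibroblast feeders at 5% oxygen. The labels give transgenes and inhibitors for the reset cells only, and KSR and bFGF for the conventional cells only. Transgenes, inhibitors and the change of medium thus cannot be told apart as parts of resetting.

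Clustered protocadherins are cell adhesion proteins of the cadherin superfamily, best known from neurons, where each cell uses a small set of them as a surface identity for the avoidance of its own processes and for synapse formation. Each alpha and gamma gene has its own promoter and its own large first exon, which encodes the extracellular cadherin repeats, the membrane span and the start of the cytoplasmic tail. The variable exon is then spliced to a few constant exons at the end of the cluster that all alpha or all gamma genes share. Beta genes consist of a single large exon and have no constant exons. The C-type genes (PCDHAC1, PCDHAC2, PCDHGC3, PCDHGC4 and PCDHGC5) sit last among the variable exons and are used by most neurons, whereas the other promoters are chosen in a stochastic way. Choice is known to depend on DNA methylation, on CTCF and cohesin, and on a short conserved sequence with a CGCT core upstream of most variable exons.

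The CpG of that conserved box was measured here. The box was searched as the letters GNCGCT in the window that begins 150 bp before each transcription start and ends 30 bp after it. On the sense strand 47 of 53 members held a match to these letters, against 26.4% of all protein-coding genes on the sense strand and 26.1% on the other. A match was found in 12 of 13 PCDHA1 to PCDHA13, 15 of 16 beta, 11 of 12 PCDHGA, 6 of 7 PCDHGB and 3 of 5 C-type genes. PCDHA9, PCDHB6, PCDHGA12, PCDHGB7, PCDHAC2 and PCDHGC5 had no sense match in this window. The match of PCDHA7 lies 133 bp before an annotated start that is the start codon itself. It reads GACGCT, whereas all other matches of PCDHA1 to PCDHA13 read GTCGCT. In PCDHA7 the letters GTCGCT lie further upstream, outside the window, so its match may not be the conserved box. Pooled levels are also given without it. The examples are 30 bases long, 5′ to 3′ on the plus strand, with the 6 matched letters in capitals, and were chosen to show how the flanks differ between subfamilies.
PCDHA3, chr5:140180579-140180608: tttagccacatgatGTCGCTgtccaccaca
PCDHA8, chr5:140220715-140220744: tgaagccacatgatGTCGCTgtctaccaag
PCDHA13, chr5:140261647-140261676: ttcatgcgcatggtGTCGCTcttcactgag
PCDHB3, chr5:140479977-140480006: agcgaacgcatggtGGCGCTgttgactaag
PCDHB9, chr5:140566648-140566677: ggaagccacaaggtGGCGCTgcagactgaa
PCDHB15, chr5:140624882-140624911: agacaacgcatggtGGCGCTgcaggctaag
PCDHGA3, chr5:140723334-140723363: ttaggcctcttagtGTCGCTgttgaccact
PCDHGA8, chr5:140772135-140772164: ttaggactgtaagcGCCGCTgttcacctac
PCDHGB5, chr5:140777430-140777459: tgctgactctgggcGCCGCTgttggccaaa
PCDHAC1, chr5:140305805-140305834: gcctagaaggtgtgGTCGCTcacgttcacc
PCDHGC4, chr5:140864519-140864548: ggctgagcccgggaGCCGCTgtctgccaat

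A second motif lies inside the alpha exons. The letters AGNNGGCGC, which form part of the known CTCF recognition sequence, were searched 300 to 800 bp past the start and were present on the sense strand in 9 of 13 PCDHA1 to PCDHA13, in PCDHAC1, and in none of the beta, PCDHGA and PCDHGB genes. Of all protein-coding genes, 6.61% held it there on the sense strand and 7.12% on the other. The examples show the motif in capitals and carry the CpG whose level is given later in the text.
PCDHA3, chr5:140181234-140181263: ggttttcgctAGAGGGCGCatcagatgcag
PCDHA8, chr5:140221358-140221387: ggtttccgctAGAGGGCGCgtccgatgcag
PCDHA10, chr5:140236082-140236111: gatttccactAGAAGGCGCatctgatgcgg
PCDHA13, chr5:140262305-140262334: gatttccactAGATGGCGCatccgatgcag

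The level of a region is the share, in percent, of its CpG calls that were methylated, with both strands summed. The files held 92023996 to 98004161 calls per conventional library and 70329213 to 80199615 per reset library, and over the locus this gave 2.86 to 3.07 calls per CpG in conventional and 2.33 to 2.69 in reset cells. Member promoters held 27 to 311 calls per library (median 118.5, against 176 for all promoters tested) and first exons 102 to 644 (median 322, against 53 for all first exons tested). Relative to the autosomal mean, coverage of the locus ranged over 0.873, 0.877 and 0.9002 in the conventional libraries and 0.906, 0.922 and 0.935 in the reset libraries. Over the first exons it was 0.672 to 0.740 for alpha, 0.616 to 0.661 for beta and 0.772 to 0.792 for gamma genes in the conventional libraries. In the reset libraries it was 0.8225 to 0.897, 0.648 to 0.715 and 0.820 to 0.903 in that order. The ratio of relative coverage in reset cells to that in conventional cells was 1.20, 1.075 and 1.095 over these exons. The part of coverage in the levels was not tested. Over all chromosomes examined the level was 84.4% ± 0.161 (SD, n = 3) in conventional and 30.01% ± 0.432 (SD, n = 3) in reset cells.

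The first comparison asked which member promoters changed on resetting. A promoter comprised the 1000 bp before the transcription start and the 500 bp after it, and each was tested in a quasi-binomial model fitted across all promoters, with a threshold of 0.05 on the Benjamini-Hochberg adjusted p. All 53 could be tested. The level fell in 49 and rose in none, against 67.4% of all promoters that were lower and 3.94% that were higher. No member with a higher mean reached an unadjusted p of 0.05 in this test, and 1 promoter, that of PCDHGC4, was called higher when calls were pooled by group and compared with Fisher's exact test, which called 5.52% of all promoters higher. In 47 members every reset library lay below every conventional one, as in 69.1% of all promoters. The median member stood at 79.1% in conventional and 13.4% in reset cells, against 15.6% and 5.03% for all promoters tested.

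Averaged over the 53 promoters, the level was 66.4, 66.0 and 65.9% in the conventional libraries and 15.7, 16.4 and 16.0% in the reset libraries. The difference was -50.1 points, with a two-sided exact permutation p of 0.1, which is the smallest that 3 libraries against 3 can give. The mean over all 19440 promoters tested differed by -19.4 points. The members' excess over that mean was 34.2 to 34.9 points in the conventional libraries and 3.64 to 4.19 points in the reset libraries (exact permutation p = 0.1). Among the 39 member promoters at 50% or more in conventional cells, the median kept 21.6% of its level, against 37.2% for the 5238 such promoters in the genome (quartiles 24.6 and 48.3%).

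**Figure D1:**
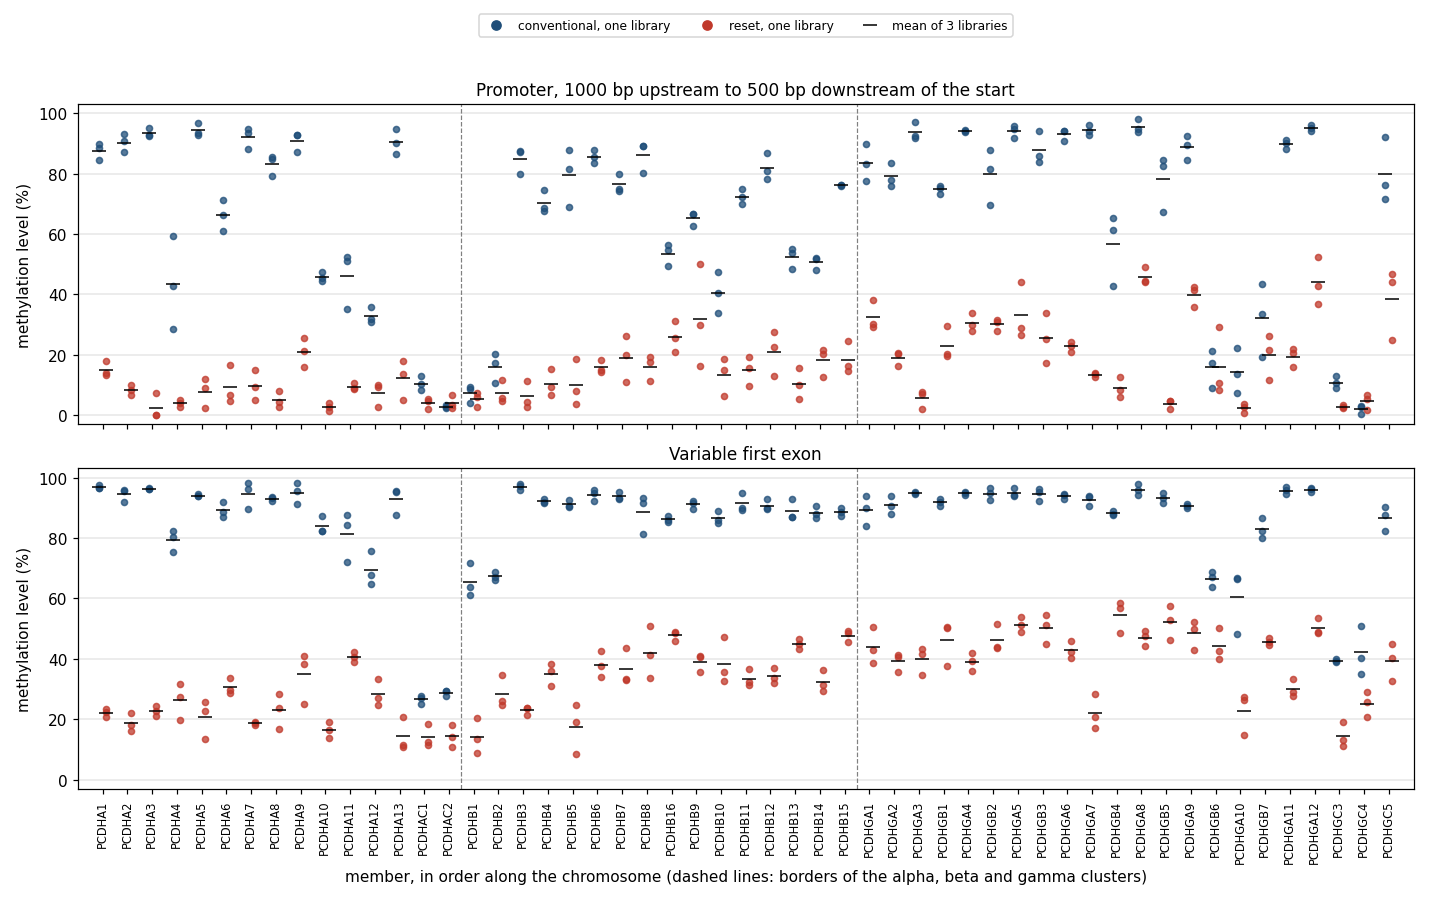
Methylation level (%) of the promoter (top) and the variable first exon (bottom) of each of the 53 members in order along the chromosome, with 1 point per library and a bar at the mean of 3. Nearly all reset points lie below the conventional ones, and the reset promoters of PCDHA1 to PCDHA13 sit at the bottom of the scale while PCDHGA8 and PCDHGA12 have reset means above 40%.

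In PCDHA1 to PCDHA13 all 13 promoters fell, and all 13 had reset libraries below the conventional ones. Their mean was 73.6% ± 1.90 (SD, n = 3) in conventional and 8.79% ± 1.02 (SD, n = 3) in reset cells, so that 11.9% of the conventional level was kept. PCDHA3 showed the largest fall of all members, from 92.8, 92.4 and 95.2% to 0, 7.39 and 0%. It fell by 91.0 points (adjusted p = 1.42e-09), and each 0 rests on 160 calls, which allows a level of up to 1.88%. PCDHA9 kept the highest alpha promoter level in reset cells at 25.5, 16.0 and 21.4%, after 92.6, 92.6 and 87.1% in conventional cells (adjusted p = 2.03e-09). The spread between libraries was widest at PCDHA4, with 59.3, 28.4 and 42.9% in conventional cells, while its reset libraries held 4.04, 2.70 and 4.90% (adjusted p = 2.60e-06). The promoters of PCDHA4, PCDHA10, PCDHA11 and PCDHA12 were below 50% in conventional cells already, with means of 43.5, 45.8, 46.2 and 32.8%, and the last 3 of these follow each other among the coding genes. The 12 alpha promoters other than PCDHA9 averaged under 20% in reset cells.

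The 200 bases upstream of the PCDHA3 start (chr5:140180442-140180641), shown because this promoter lost most, hold 6 CpGs, in capitals.
PCDHA3: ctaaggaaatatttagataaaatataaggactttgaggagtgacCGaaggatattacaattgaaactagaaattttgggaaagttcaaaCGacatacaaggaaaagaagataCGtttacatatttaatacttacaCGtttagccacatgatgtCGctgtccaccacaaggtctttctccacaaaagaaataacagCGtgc
In this stretch the conventional libraries stood at 92.6, 88.2 and 86.2% and the reset libraries at 0, 3.33 and 0%, where 0 of 28 and 0 of 26 calls allow up to 10.7 and 11.5%.

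Of the beta promoters 15 of 16 fell and none rose, with 14 free of overlap between the groups. The mean was 62.4% ± 1.05 (SD, n = 3) in conventional and 15.3% ± 1.34 (SD, n = 3) in reset cells. PCDHB3 fell most among them, by 78.6 points, from 87.4, 87.2 and 79.8% to 4.48, 2.75 and 11.4% (adjusted p = 5.11e-09). PCDHB9 kept the highest level and had the widest spread of any reset promoter, with 50, 16.2 and 29.8% after 66.7, 62.5 and 66.7% (adjusted p = 0.00176). This promoter has 15 CpGs, the fewest of all members, and its far end reaches into the first exon of another beta gene. PCDHB1, the first beta gene, was low in both states at 9.47, 4.14 and 8.77% in conventional and 6.12, 7.35 and 2.69% in reset cells (adjusted p = 0.329). PCDHB2, the next gene, fell by 8.73 points from a conventional mean of 16.0% (adjusted p = 0.0285), but its groups overlapped. Its call was lost without the conventional library 1 (adjusted p = 0.112), the reset library 1 (adjusted p = 0.0842) or the reset library 3 (adjusted p = 0.131).

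The PCDHGA promoters were the most methylated subfamily in conventional cells, at 84.6% ± 0.561 (SD, n = 3), and averaged 25.7% ± 1.51 (SD, n = 3) in reset cells. All 12 fell with no overlap. PCDHGA3 fell most, by 88.1 points, from 97.0, 91.6 and 92.6% to 7.14, 7.83 and 1.96% (adjusted p = 2.77e-10). PCDHGA8 kept the highest reset level of all members, 44.1, 44.5 and 49.0% after 98.0, 94.7 and 93.8% (adjusted p = 1.45e-08), and PCDHGA12 followed at 36.7, 42.9 and 52.5%. PCDHGA10 was the exception in conventional cells at 7.22, 22.2 and 13.6%, and held 3.66, 0.781 and 2.75% in reset cells, the lowest reset mean of all members (adjusted p = 0.00116). The widest spread among the PCDHGA promoters was at PCDHGA5 in reset cells, with 29.0, 26.5 and 44%, after 94.9, 95.8 and 91.7% (adjusted p = 1.6e-08).

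The 200 bases upstream of PCDHGA8 (chr5:140772000-140772199) are shown for contrast with PCDHA3 and hold 4 CpGs, in capitals.
PCDHGA8: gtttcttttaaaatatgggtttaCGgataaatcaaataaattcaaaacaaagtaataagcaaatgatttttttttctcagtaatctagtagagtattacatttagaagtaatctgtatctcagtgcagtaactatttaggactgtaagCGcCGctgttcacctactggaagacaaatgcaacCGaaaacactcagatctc
Here the conventional libraries stood at 100, 91.7 and 90% and the reset libraries at 30, 15.8 and 13.3%, so this stretch was lower in reset cells than the promoter as a whole.

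Of the PCDHGB promoters 6 of 7 fell and none rose. PCDHGB5 fell most, by 74.3 points, from 84.4, 82.6 and 67.3% to 4.55, 4.76 and 2.13% (adjusted p = 8.32e-08), and PCDHGB2 kept the highest level, 31.7, 27.9 and 31.0% after 81.7, 69.7 and 87.9% (adjusted p = 8.63e-07). PCDHGB6 did not differ beyond the spread of its libraries, with 9.04, 21.2 and 17.4% in conventional and 8.50, 29.2 and 10.7% in reset cells (adjusted p = 0.665). PCDHGB7 had the widest conventional spread of the PCDHGB promoters, with 33.7, 43.6 and 19.4%, against 11.8, 21.6 and 26.1% in reset cells. Its groups overlapped and its adjusted p was 0.0448. That call was lost without the conventional library 1 (adjusted p = 0.0648), the conventional library 2 (adjusted p = 0.362), the reset library 1 (adjusted p = 0.187) or the reset library 2 (adjusted p = 0.0743). Within 500 bp of the start the difference was -8.20 points (adjusted p = 0.215), and with the dispersion prior taken from all features the adjusted p was 0.0516. PCDHGB6, PCDHGA10 and PCDHGB7 follow each other in the cluster, and averaged 15.9, 14.4 and 32.2% in conventional cells.

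Among the C-type promoters, PCDHAC1, PCDHAC2, PCDHGC3 and PCDHGC4 averaged 10.5, 2.83, 10.8 and 2.14% in conventional cells, and PCDHGC5 stood at 76.4, 71.4 and 92.2%. PCDHGC5 fell to 25, 44.1 and 46.7% (adjusted p = 0.000229). PCDHGC3 fell from 12.95, 10.5 and 8.86% to 2.72, 3.47 and 2.36% (adjusted p = 0.00142). PCDHAC1 fell by 6.53 points, from 10.2, 12.9 and 8.36% to 4.58, 1.99 and 5.33% (adjusted p = 0.00553). Within 500 bp of its start the difference was 0.0579 points (adjusted p = 0.965), and without the reset library 2 the adjusted p was 0.0623. PCDHAC2 held 3.23, 2.84 and 2.42% in conventional and 6.61, 3.54 and 2.27% in reset cells (adjusted p = 0.463). PCDHGC4 held 2.83, 3.08 and 0.503% and 5.51, 6.59 and 1.70% (adjusted p = 0.108). Across the locus 8 promoters were under 20% in conventional cells. Of these 4 (50%) fell and none rose, near the shares of 46.8% that fell and 6.5% that rose among 11083 such promoters in the genome.

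The start of PCDHAC2 is CpG-rich, unlike those of PCDHA3 and PCDHGA8. Its 200 upstream bases (chr5:140345861-140346060) hold 11 CpGs, in capitals.
PCDHAC2: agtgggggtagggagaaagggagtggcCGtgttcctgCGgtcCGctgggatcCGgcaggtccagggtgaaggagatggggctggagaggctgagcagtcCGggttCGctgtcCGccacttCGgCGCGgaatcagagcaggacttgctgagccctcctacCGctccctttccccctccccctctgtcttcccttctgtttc
None of 48 conventional calls here was methylated, which allows a level of up to 6.25%, and the reset libraries stood at 9.52, 0 and 0%, the last 2 on 29 and 7 calls, which allow up to 10.3 and 42.9%.

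The second comparison concerned the variable first exons. All 53 were tested and all 53 fell with no overlap between the groups, against 19.7% of all first exons that were lower, 21.9% that did not overlap downward and 3.06% that were higher. Member exons were tested with more calls than most first exons (medians of 322 and 53 per library). No member exon had a higher mean in reset cells. Most first exons in the genome are barely methylated (median 0.901% in conventional cells), and the median member exon was at 91.2%. Among the first exons at 50% or more in conventional cells, the 49 members kept a median of 41.2% and all 1785 kept 38.7% (quartiles 22.8 and 50.9%).

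The subfamilies, close together in conventional cells, lay apart in reset cells. The first exons of PCDHA1 to PCDHA13 averaged 89.2, 89.6 and 88.9% in the conventional libraries and 25.03, 22.1 and 26.0% in the reset libraries. The beta exons averaged 86.8, 87.9 and 88.2% and then 33.6, 33.9 and 36.0%. The PCDHGA exons averaged 91.5, 91.7 and 89.3% and then 37.4, 41.2 and 40.5%. The PCDHGB exons averaged 87.7, 87.5 and 87.1% and then 45.0, 49.4 and 51.1%. The difference between the PCDHGA and PCDHGB exons together and the alpha exons was -0.436 to 0.862 points in the conventional libraries and 15.2 to 22.1 points in the reset libraries. The difference between beta and alpha exons went from -2.41 to -0.704 points to 8.57 to 11.8 points. For each of these the reset libraries lay above all conventional ones (two-sided exact permutation p = 0.1, the smallest possible). The order in reset cells was alpha, beta, PCDHGA, PCDHGB, and no library range overlapped that of its neighbour.

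**Figure D2:**
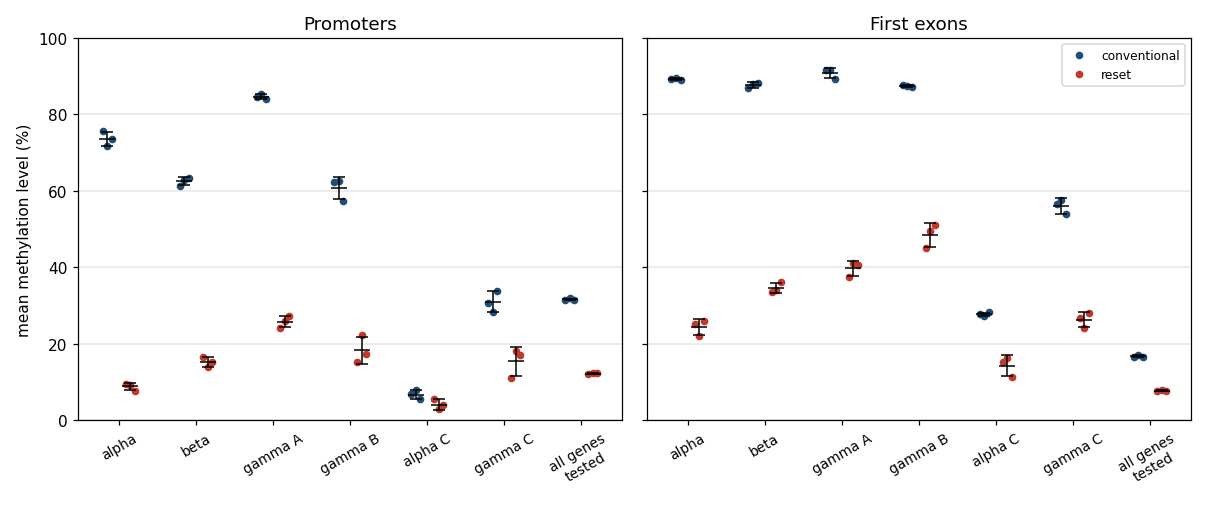
Mean methylation level (%) of the promoters (left) and first exons (right) of each subfamily, and of all genes tested, with 1 point per library and the mean ± SD of 3 libraries. In conventional cells the exon means of alpha, beta, PCDHGA and PCDHGB lie between 86.8 and 91.7%, and in reset cells they spread from 22.1 to 51.1%.

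Among single exons the lowest reset levels outside the C-type genes were at PCDHB1 (14.2%), PCDHA13 (14.4%), PCDHA10 (16.3%) and PCDHB5 (17.4%), and the highest were at PCDHGB4 (54.5%), PCDHGB5 (52.1%), PCDHGA5 (51.2%) and PCDHGB3 (50.3%). Of the 13 alpha exons 1, that of PCDHA11, was above 40% in reset cells, as were 4 of 16 beta, 6 of 12 PCDHGA and 7 of 7 PCDHGB exons. PCDHGA7, PCDHGA10 and PCDHGA11 stood apart from the other PCDHGA exons at 22.03, 22.9 and 29.9%. Of the C-type exons, PCDHAC1 (26.6 to 14.1%), PCDHAC2 (28.8 to 14.3%), PCDHGC3 (39.3 to 14.4%) and PCDHGC4 (42.1 to 25.1%) started low, and PCDHGC5 (86.6 to 39.2%) started near the other gamma exons. The fall of the PCDHGC4 exon was not called without the reset library 2 (adjusted p = 0.0875) or with the dispersion prior taken from all features (adjusted p = 0.108). By the mean of the reset libraries the first exon was above its own promoter in all 53 members, and in each reset library in 50, the others being PCDHA13, PCDHB9 and PCDHGC5. Exon means also exceeded promoter means in conventional cells. The gap was 15.7 points in conventional and 15.6 in reset cells for PCDHA1 to PCDHA13, and 25.2 and 19.25 for beta genes. It was 6.19 and 13.96 points for PCDHGA and 26.7 and 30.2 for PCDHGB genes. Libraries of the groups overlapped for PCDHA1 to PCDHA13 and PCDHGB.

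In PCDHA1 to PCDHA13, beta, PCDHGA and PCDHGB genes the level in reset cells was lowest near the start and higher further into the exon. In bins of 250 bp over PCDHA1 to PCDHA13, the last 250 bp before the start stood at 67.8% in conventional and 5.23% in reset cells, and the bin from 500 bp at 67.7 and 9.42%. The bin from 1500 bp stood at 97.1 and 33.1%. In beta genes the bin before the start held 45.2 and 4.98%, and the bin from 1750 bp held 95.6 and 49.6%. The corresponding values were 73.9 and 9.22%, then 95.8 and 55.3%, in PCDHGA genes, and 44.6 and 4.63%, then 95.7 and 65.6%, in PCDHGB genes. The bin from 1750 bp of the PCDHGB genes held 61.9, 67.4 and 67.4% in the reset libraries and kept 68.5% of its conventional level. The bin from 1750 bp held more CpGs than the bin before the start in each of these subfamilies, with 405 against 67 in the alpha genes. It was covered by fewer calls per CpG. In the conventional library 1 the alpha bins held 698 and 372 calls. The beta bins held 431 calls over 447 CpGs and 578 over 107. The part of this coverage in the levels was not tested.

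**Figure D3:**
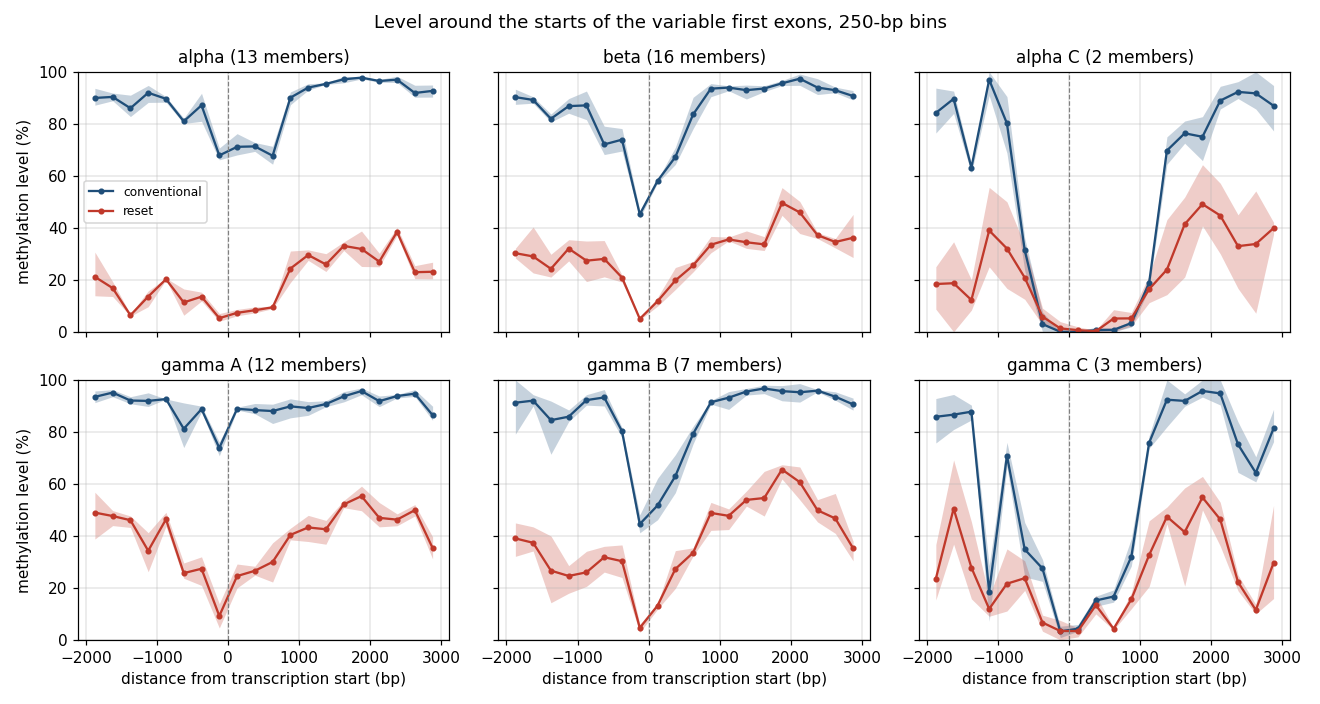
Methylation level (%) against distance from the transcription start (bp) in 250-bp bins pooled over the members of each subfamily. Lines join the means of 3 libraries and bands span their lowest and highest values. In reset cells the level dips to 4.63 to 9.22% just before the start of alpha, beta, PCDHGA and PCDHGB genes. It is highest 1500 to 2500 bp into the exon. The pooled C-type bins just before the start reach at most 5.26% in any conventional library and 7.5% in any reset one. PCDHGC5 adds few calls to them. Its last 200 bp hold 2 CpGs, at 33.3, 66.7 and 100% in the conventional libraries on 3, 3 and 1 calls.

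Further upstream, the PCDHGA reset libraries lay apart from those of the other 3 subfamilies between 1000 and 750 bp before the start. In the bin to each side they overlapped those of beta and PCDHGB genes. The bin was picked after its values were seen, and in PCDHGA genes it rests on 20 CpGs and 55 to 82 reset calls per library. From 1000 to 750 bp before the start the reset level was 20.2% in PCDHA1 to PCDHA13, 27.4% in beta, 46.4% in PCDHGA and 26.0% in PCDHGB genes, and all were between 87.1 and 92.7% in conventional cells. The PCDHGA reset libraries (43.75 to 49.1%) lay above those of the other 3, whose libraries overlapped. In this bin PCDHB9, PCDHB10 and PCDHGA11 reach into the first exon of another member, and without them the reset level was 24.96% in beta and 46.96% in PCDHGA genes. From 750 to 500 bp before the start it was 25.7% in PCDHGA, 28.0% in beta and 31.8% in PCDHGB genes. From 1250 to 1000 bp it was 34.3, 32.0 and 24.6% in that order. Without members that reach another first exon, the PCDHGA and beta levels of that bin were 28.9 and 27.6%. PCDHA1 to PCDHA13 stood at 11.3 and 13.55% in the bins to each side. In the bins from 2000 to 1250 bp before the start the reset level was 46.05 to 48.97% in PCDHGA genes. It was 24.2 to 30.2% in beta and 26.6 to 39.05% in PCDHGB genes. Without members that reach another first exon, the PCDHGA level there was 28.9 to 41.8%. The 2 alpha C-type starts held 0% in each conventional library over the last 250 bp, where 116, 21 and 84 calls allow up to 2.59, 14.3 and 3.57%, and 3.90, 0 and 0% in the reset libraries (0 of 99 and 0 of 54 calls, up to 3.03 and 5.56%), and stood at 69.7% in the bin from 1250 bp in conventional cells.

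The CpG inside the upstream box was measured by pooling calls over all matches to its letters. PCDHB2, PCDHB4, PCDHGB4 and PCDHGB5 have 2 matches each and PCDHGC3 has 4. Which of these is the conserved box was not examined. Over 12 PCDHA1 to PCDHA13 matches the CpG stood at 61.5, 58.9 and 66.0% in conventional cells and 3.92, 5.26 and 0% in reset cells, where the 0 rests on 46 calls and allows up to 6.52%. Without PCDHA7 it stood at 59.2, 55.2 and 63.3% and at 2.04, 2.08 and 0%. Over 17 matches in 15 beta genes it was 28.9, 25.8 and 21.9%, lower before resetting than in PCDHA1 to PCDHA13, PCDHGA and PCDHGB genes, and then 0, 2.99 and 1.72% (0 of 61 calls, up to 4.92%). Over 11 PCDHGA boxes it was 61.2, 63.2 and 60.4% and then 6.82, 0 and 2.38% (0 of 44 calls, up to 6.82%). Over 8 matches in 6 PCDHGB genes it was 45.2, 53.5 and 41.2%, and none of 72 reset calls was methylated, which allows up to 4.17%. In each of these 4 subfamilies every reset library lay below every conventional one. The 6 C-type matches were at 0 to 4.55% in conventional cells already. The CpGs within 100 bp of the box stood higher than the box CpG in conventional cells (69.2, 39.2, 73.3 and 52.3% for the 4 subfamilies in that order) and reached 5.25, 4.91, 10.2 and 4.04% in reset cells.

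Over the 9 exon motifs in PCDHA1 to PCDHA13 the CpG of the motif stood at 57.9, 68.8 and 60.0% in the conventional libraries and at 0, 2.78 and 0% in the reset libraries. The zeros rest on 22 calls each, which allow up to 13.6%. The CpGs within 100 bp held 68.3% ± 1.38 (SD, n = 3) and then 5.44% ± 1.38 (SD, n = 3), and the alpha exons as a whole stood at 24.4% in reset cells.

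**Figure D4:**
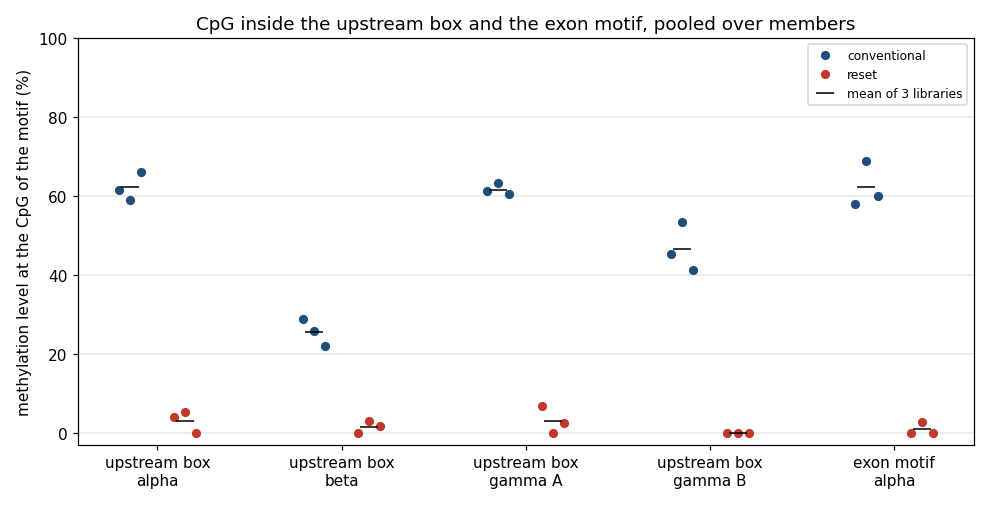
Methylation level (%) of the single CpG inside the upstream box of 4 subfamilies and inside the exon motif of PCDHA1 to PCDHA13, pooled over members, with 1 point per library and a bar at the mean of 3. Conventional libraries range from 21.9 to 68.8% and reset libraries from 0 to 6.82%.

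The constant exons of the alpha and gamma clusters are spliced to every member of their cluster. There are 3 in each, 6 in all, and 2 had enough calls to be tested, since the small ones hold 1 to 5 CpGs. The last alpha exon (chr5:140389212-140391932, 29 CpGs) fell from 94.6, 97.2 and 92.9% to 18.7, 33.3 and 30.6% (adjusted p = 1.65e-17), and it was the only constant exon called lower, beside 94.2% of all exons after the first that were lower. Its adjusted p was 1.07e-06 with the dispersion prior taken from all features and 0.00518 with the replicate number as a block. With a minimum of 5 calls the second gamma exon (chr5:140884960-140885048) was also called, from 83.9, 100 and 93.8% to 33.3, 45.5 and 58.8% (adjusted p = 0.0013), beside 94.2% of all later exons with this minimum. The first gamma exon (chr5:140874374-140874432) held 8.33, 9.09 and 0% in conventional and 25, 10 and 20% in reset cells, on 9 to 12 calls per library, and with this minimum it did not pass (12.5 points, adjusted p = 0.171).

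The last gamma exon (chr5:140890514-140892542, 48 CpGs), which all 22 gamma genes share, did not pass as a whole. It stood at 39.0, 23.1 and 41.2% in conventional and 21.3, 31.2 and 27.0% in reset cells (adjusted p = 0.243), and without the conventional library 2 it was called lower (adjusted p = 0.0184). A split of the exon at the border of the last 1-kb window, made after its values were seen, separated 2 stretches that moved in opposite directions. The first 1487 bp, with 18 CpGs, held 86.7, 79.1 and 92.2% in conventional and 40, 44.9 and 30.8% in reset cells. The last 542 bp, with 30 CpGs, held 3.33, 2.56 and 2.94% and then 10.0, 23.9 and 22.9%.

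Tested in 1-kb windows, the locus had 582 windows with enough calls of 728. Of these 570 fell, against 98.3% of all windows that were lower, and 7 rose, against 0.421%. With a minimum of 30 calls 250 of 260 fell, against 95.2%. In the alpha cluster 170 of 175 windows fell and 3 rose, in the beta cluster 149 of 149 fell, and in the gamma cluster 162 of 168 fell and 4 rose. Windows under 20% in conventional cells numbered 18 in the locus. Of these 7 (38.9%) rose and 8 (44.4%) fell, against 23.9% that rose and 28.2% that fell among 32750 such windows in the genome. None of 544 locus windows at 50% or more in conventional cells kept 80% of that level, which 0.147% of 1996007 such windows in the genome did.

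The largest rise was in the window at chr5:140892001-140893000, which holds the unmethylated end of the last gamma exon, from 1.94, 1.55 and 1.94% to 11.5, 26.1 and 18.5% (adjusted p = 2.04e-16). The next was in the last alpha intron at chr5:140381001-140382000, from 1.33, 0 and 3.23% to 10.9, 16.0 and 17.9% (adjusted p = 2.4e-06). The third lay in the last gamma intron at chr5:140888001-140889000, from 10.4, 10.0 and 11.9% to 15.4, 23.2 and 30.9% (adjusted p = 0.00375). This call was lost without the reset library 3 (adjusted p = 0.0583). With the window of the first gamma constant exon (22.9, 13.8 and 8.93% to 27.9, 30.6 and 24.1%, adjusted p = 0.0276), these made up the 4 windows that rose by 10 points or more without overlap, beside 0.249% of all windows. The call of that window was lost without the conventional library 2 (adjusted p = 0.0664) or 3 (adjusted p = 0.142) and without the reset library 1 (adjusted p = 0.0636) or 2 (adjusted p = 0.0832). The other 3 windows that rose lie at the starts of PCDHAC1, PCDHAC2 and PCDHGC4 and rose by 1.01, 2.44 and 4.02 points. The first of these rests on the reset library 2 alone, at 5.12% against 0 in the others, and without it the difference was -0.701 points. The PCDHAC2 window was not called without the reset library 1 (adjusted p = 0.297) or the conventional library 2 (adjusted p = 0.104).

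The highest reset levels of the locus were in first exons. The window inside PCDHGB4 at chr5:140769001-140770000 held 66.9, 67.1 and 72.9% after 85.7, 92.4 and 97.4% (adjusted p = 3.58e-13) and kept 75.1%, the most among windows of the locus at 50% or more in conventional cells. The window at chr5:140627001-140628000 in PCDHB15 held 67.1, 67.4 and 63.0%, and the window at chr5:140731001-140732000 in PCDHGB1 held 42.7, 81.5 and 72.3%.

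**Figure D5:**
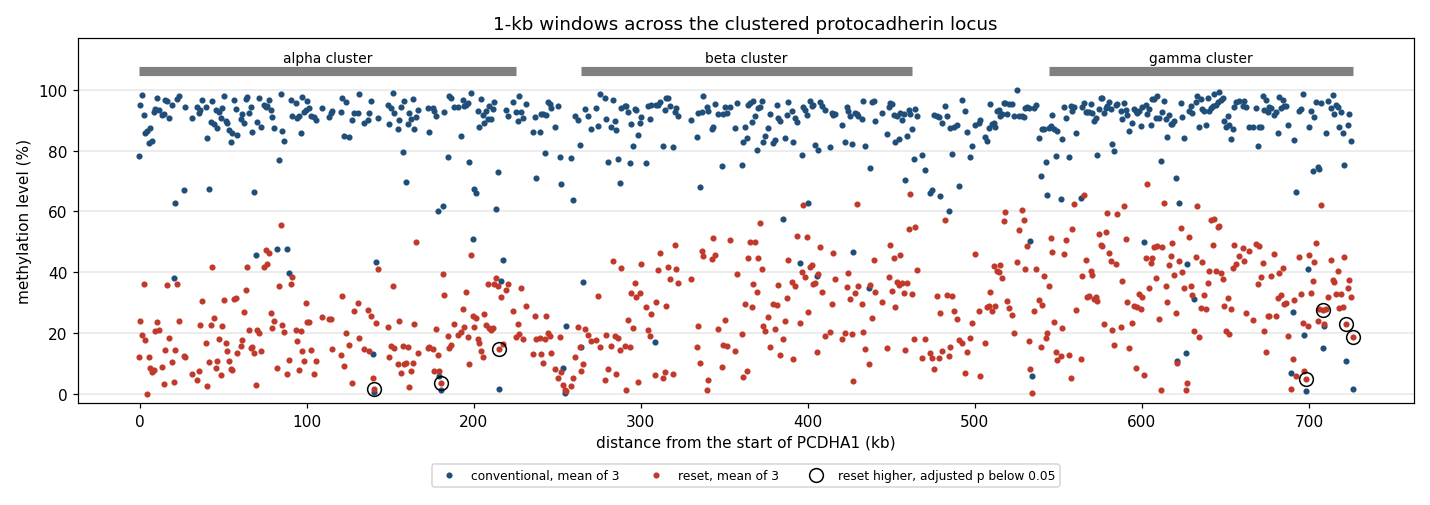
Mean methylation level (%) of the 582 tested 1-kb windows of the locus against distance from the start of PCDHA1 (kb), for conventional and reset cells, with grey bars for the clusters and circles around the 7 windows that rose. The reset level climbs from the alpha to the gamma cluster, and the 7 circles lie at C-type starts or past the last variable exon of a cluster.

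By cluster, the level from the first to the last base of the members was 83.1% ± 0.507 (SD, n = 3) in conventional and 21.9% ± 0.995 (SD, n = 3) in reset cells for alpha, 86.1% ± 0.457 and 30.3% ± 0.658 for beta, and 82.6% ± 0.587 and 36.8% ± 1.27 for gamma (SD, n = 3). The differences were -61.3, -55.8 and -45.8 points, each with an exact permutation p of 0.1. The clusters differed by under 4 points in conventional cells, and the reset libraries of one cluster did not overlap those of the next. The same order held outside the promoters and exons. Between the variable exons the level was 90.7, 89.9 and 90.6% in conventional cells for alpha, beta and gamma, and 21.5, 29.4 and 36.4% in reset cells. The stretch between the alpha and beta clusters was lower than any cluster in both states, at 63.9 and 13.3%, and that between beta and gamma stood at 82.3 and 29.4%.

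The spread between libraries at the members was compared with that at all features, without a test. The median SD over 3 reset libraries was 4.11 points for member promoters, against 1.73 for all promoters tested, and 4.06 points for member first exons, against 1.07. SD depends on level and on calls, so the ratio of the observed to the binomial variance was computed as well. This ratio also drops where almost no call is methylated, and it can rise with the number of calls where calls are not independent. The median first exon tested stood at 0.943% in reset cells. Member first exons held a median of 322 calls per library, against 53 for all first exons tested. No set of like level and calls was compared. The median ratio in reset cells was 1.70 for member promoters against 1.11 for all, and 2.59 for member exons against 0.669. In conventional cells it was 1.19 against 1.32 for promoters and 1.27 against 0.631 for first exons, where the median SD was 1.86 points against 1.02. The widest spreads were at the PCDHB9 promoter (SD 17.0 points) in reset and the PCDHA4 promoter (SD 15.4 points) in conventional cells. The median deviation from the group mean was -0.424, 0.620 and -0.176 points at promoters in the reset libraries and -1.54, -0.100 and 0.757 points at first exons. Among the reset libraries, library 1 was the lowest at 25 of 53 first exons and library 3 at 9, and library 3 was the highest at 23. The mean of the member exons exceeded that of all first exons tested by 25.3, 25.6 and 27.5 points in the reset libraries and by 67.8 to 68.2 points in the conventional ones.

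The clusters also hold 6 pseudogenes, which lack protein function but resemble variable exons in sequence. PCDHA14, PCDHB17P, PCDHB18P, PCDHB19P, PCDHGB8P and PCDHGB9P had conventional means of 89.7 to 95.1% and reset means of 41.5 to 50.2%, with no overlap between groups. PCDHA14, which lies between PCDHA10 and PCDHA11, held 48.7, 32.1 and 49.4% in the reset libraries. Its mean of 43.4% lay above that of each of the 13 coding alpha exons. Its libraries overlapped those of the highest of these, PCDHA11 (42.4, 40.5 and 38.85%).

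Protocadherin genes outside the clusters lie on several chromosomes. Of the promoters of 12 (PCDH1, PCDH7 to PCDH10, PCDH11X, PCDH12, PCDH15 and PCDH17 to PCDH20), 2 fell and 6 rose, with a median difference of 4.40 points, against the 67.4% of all promoters that were lower and 3.94% that were higher. In conventional cells 9 of the 12 were under 20%, and the 6 that rose were among these 9, of which none fell. The shares over the genome for such promoters were 6.5 and 46.8%. The list was not tested against the clustered members. PCDH8 rose from 3.11, 0.476 and 1.91% to 28.7, 47.3 and 32.5% (adjusted p = 2.27e-07) and PCDH11X from 1.45, 0 and 0% to 51.9, 29.0 and 10.0% (adjusted p = 0.000337). PCDH12 fell by 48.0 points (adjusted p = 1.64e-06) and PCDH15 by 47.0 points (adjusted p = 1.45e-05). Of 12 genes for known regulators of the clusters (CTCF, the cohesin subunits RAD21, SMC1A, SMC3, STAG1 and STAG2, the cohesin loader NIPBL, the cohesin release factor WAPL, SMCHD1, SETDB1, DNMT3A and DNMT3B), 5 promoters fell and none rose, with a median difference of -1.74 points, beside the same 67.4 and 3.94% of all promoters. Of these 12 promoters 9 were under 20% in conventional cells, and 2 of the 9, those of RAD21 and SMC3, fell. The largest falls were at the cohesin subunit genes SMC1A, from 33.1, 66.7 and 21.6% to 0.687, 0.935 and 1.25% (adjusted p = 1.89e-06), and STAG2, from 36.99, 34.6 and 33.3% to 1.56, 0.602 and 0% (adjusted p = 1.05e-07). Both genes lie on the X chromosome. The CTCF promoter stood at 0.847% and 0.596%, and DNMT3A was the only gene of this list with a higher mean in reset cells (1.91 and 2.69%, adjusted p = 0.54).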

How the data were processed

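The 6 libraries came from sonicated DNA of H9 cells, ligated to methylated adapters, treated with bisulfite and amplified. The authors used Trim Galore for trimming and Bismark with Bowtie2 for alignment to GRCh37 (Bismark version 0.9.0 in the submitters' processing notes, another in the methods), and removal of duplicate reads is not given in the sources used here. The deposited files list, per cytosine, raw counts of methylated and of unmethylated calls. A percent column deposited beside them equals the share of methylated counts and was not used. Positions were read as counted from 0, which put 99.8% of them at a CpG, and are printed counted from 1.

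Each CpG was given the sum of its calls on both strands. Genes came from GENCODE release 44 for GRCh37, with 1 canonical transcript each, and 278 genes without that tag, PCDHA6 and PCDHA7 among them, took a MANE or APPRIS principal coding transcript where there was one and otherwise the one with the longest coding sequence. Exons split by gaps of at most 5 bp from the lift were joined. The annotated PCDHA7 transcript begins at its start codon. The last alpha exon ends 3 bp earlier in 2 transcripts and was taken as 1 exon. Testing required 10 calls or more per feature and library, and was done with a quasi-binomial model and a likelihood-ratio F test. Dispersions were squeezed with limma 3.58.1 in R 4.3.3, with the prior taken from features with at least 2 calls per library of the rarer kind (a choice made after seeing the data), and kept at 1 or more. P-values were adjusted over all features of a kind by the Benjamini-Hochberg method. Levels were compared with two-sided exact permutation tests in scipy 1.17.1. The tests were tried on simulated data. Calls of 1 read or of PCR copies are not independent, so upper limits (3 calls over the total) cover counting error only.

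The text gives all C-type members and PCDHB1, and in each other subfamily the promoters with the largest change, highest and lowest reset level and largest SD, and the 3 windows with the largest rise and the highest level. Other members named were chosen after their values were seen. Members, lists, the motifs and this rule were chosen with earlier results of these data known. Groups came from the labels. The study calls the libraries of a group biological replicates, while the labels do not say that they came from separate cultures. The spread between these libraries may thus be technical. Permutation p-values rest on this spread alone, and p-values of the quasi-binomial model rest also on dispersions pooled over features. Alternatives were other minimum numbers of calls, Fisher's exact test, a replicate block, other promoter bounds, an upper limit on calls per CpG, another level, another dispersion prior and leaving out each library.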

Additional observations from a re-analysis of the deposited data

How the results depend on the processing

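At 2.51 to 3.49 calls per CpG in each library, single CpGs could not be compared, and 4 of 6 constant exons did not reach the minimum of 10 calls. Leaving out 1 library gave 47 to 49 promoters lower and 0 higher, 52 to 53 first exons lower and 0 higher, 1 to 2 constant exons lower, and 569 to 581 windows lower and 5 to 6 higher. The level differences without 1 library were -61.7 to -60.7 points for alpha, -56.1 to -55.5 for beta, -46.3 to -45.1 for gamma and -50.3 to -49.9 for the mean promoter. A mean over CpG levels moved the alpha difference to -59.8 points. Fisher's exact test on pooled calls called 1 member promoter higher (PCDHGC4, adjusted p = 0.0231), beside 5.52% of all promoters. A minimum of 5 calls gave 2 constant exons lower, and a minimum of 30 calls left 260 windows of the locus, of which 250 were lower, beside 95.2% of all windows. The PCDHAC1 promoter differed by 0.0579 points within 500 bp of the start, and the window at its start by -0.701 to 1.86 points without 1 library, the lowest without the reset library 2. Of the other alternatives, the replicate block moved 1 count by over 1.5 times, that of windows that rose (7 to 4).

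Over all promoters, the deviations of same-numbered libraries had correlations of 0.0064, 0.0107 and 0.00837. Those of differently numbered libraries were -0.0165 to 0.00844. Values this small do not show whether the libraries were paired. The main tests leave them unpaired, and the replicate number as a block is given as an alternative. A replicate block gave 48 promoters lower and 0 higher, 48 first exons lower and 0 higher, 1 constant exon lower, and 565 windows lower and 4 higher. With it the calls were lost for the PCDHGB7 promoter (adjusted p = 0.0764), for the first exons of PCDHA11 (0.0584), PCDHAC1 (0.129), PCDHAC2 (0.0871), PCDHGA10 (0.110) and PCDHGC4 (0.242), and for the rises of the windows at the PCDHAC1 start (0.238), the PCDHAC2 start (0.0580) and the first gamma constant exon (0.0710). With the libraries paired, the level differences (-61.3, -55.8, -45.8 and -50.1 points) are the same by construction, so pairing is no check on them. The exact paired p was 0.25, the smallest that 3 pairs allow. The prior from all features, an alternative added after seeing the data, gave 48 promoters, 52 first exons, 1 constant exon and 570 windows lower and 7 windows higher. Leaving out the PCDHA7 match, also added after seeing the data, moved the difference at the alpha box CpG from -59.1 to -57.85 points.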
